A study of Mus musculus with 12 samples.

Results

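The 6 genes described here, Podxl, Ezr, Clic5, Dpp4, Ildr2 and Pdpn, encode proteins of the podocyte apical surface or its cytoplasmic anchor. The rule uses their names only, although they were picked with earlier results of these data known, and they are 6 of the 26264 gene symbols with a count. All 6 passed the filter on low counts and were among the 17002 genes tested. Glomerulus-enriched RNA was sequenced from male mice, 8 weeks old, of 2 BALB/c substrains, which the labels spell BALB/cAjcl and BALB/cByJcl (AJcl and ByJcl below). In each substrain 3 libraries came from untreated mice (baseline) and 3 from mice 5 days after 1 intravenous dose of adriamycin (ADR, doxorubicin) of 10 mg/kg, given by the retro-orbital route (Day 5). The baseline mice are called untreated in the labels and where the study describes the sequencing, although its general methods give control mice saline, and any effect of an injection was not tested apart from that of ADR. Glomeruli had been trapped on magnetic beads after perfusion, and each library therefore mixes podocytes with endothelial, mesangial and other cells. The library AJcl Day 5 replicate 1 (A-ADR1), which the study set aside for low glomerular purity, was left out of the main tests. It is named where its value is given singly, and ranges, limits and ranks of levels include it.

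Podocytes cover the outside of the glomerular capillaries with interdigitating foot processes, and the face of these processes that looks into the urinary space carries a thick, negatively charged glycocalyx. Podocalyxin (Podxl), a heavily sialylated mucin related to CD34, is the main sialoprotein of that coat. Its cytoplasmic tail is tied through NHERF adaptors to ezrin (Ezr), which binds cortical actin, and CLIC5 (Clic5) sits in the same complex. Podoplanin (Pdpn) is a small mucin-type protein that also binds ezrin-family proteins and is the ligand of the platelet receptor CLEC-2. Dipeptidyl peptidase 4 (Dpp4) is a membrane exopeptidase present on podocytes and on the proximal tubule brush border. ILDR2 (Ildr2) belongs to the angulins, membrane proteins of tricellular contacts.

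In the GENCODE annotation of GRCm39, Podxl lay on chromosome 6 from 31496418 to 31540924 on the minus strand and Pdpn on chromosome 4 from 142990871 to 143026143 on the minus strand. Ezr (chromosome 17, 7005440 to 7050611, minus strand) and Clic5 (chromosome 17, 44445659 to 44591590, plus strand) shared a chromosome. Dpp4 was annotated on chromosome 2 from 62159798 to 62242576 on the minus strand and Ildr2 on chromosome 1 from 166081665 to 166146159 on the plus strand. Podxl and Pdpn overlapped no other annotated gene. Ezr overlapped the protein-coding gene Sytl3 on the other strand, which had at most 0.601 CPM (counts scaled to library size) in any library against at least 322 CPM for Ezr, and Ezr, Clic5, Dpp4 and Ildr2 overlapped long noncoding RNAs. The libraries were strand-specific, but the strand setting of the counting was not given in the sources used here, so reads of these noncoding RNAs and of the 4 members could not be separated.

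RefSeq promoter windows of 300 bases in GRCm38.p6, from 250 bases before the start of transcription to 50 after it, were found for 5 of the 6 members, all but Podxl. The windows of Pdpn and Ildr2 are shown because these 2 members exchanged places in the order of levels at Day 5 in ByJcl mice, as described below. Capitals mark the GC box GGGCGG, read on both strands, so that it also appears as CCGCCC.
Pdpn, chr4:143299515-143299814, minus strand: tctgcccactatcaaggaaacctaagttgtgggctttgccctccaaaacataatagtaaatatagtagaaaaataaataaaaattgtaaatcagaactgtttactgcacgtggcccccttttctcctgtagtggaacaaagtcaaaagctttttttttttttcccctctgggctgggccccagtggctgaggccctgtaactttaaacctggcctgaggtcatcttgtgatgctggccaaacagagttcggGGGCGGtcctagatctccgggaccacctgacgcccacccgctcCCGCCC
Ildr2, chr1:166253889-166254188, plus strand: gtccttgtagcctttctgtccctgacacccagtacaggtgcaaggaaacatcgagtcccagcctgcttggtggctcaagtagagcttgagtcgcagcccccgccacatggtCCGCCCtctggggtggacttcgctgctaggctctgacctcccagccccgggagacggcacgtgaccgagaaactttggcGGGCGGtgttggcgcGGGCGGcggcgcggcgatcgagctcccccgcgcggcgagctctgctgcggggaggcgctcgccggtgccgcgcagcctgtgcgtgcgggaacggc
The GC box had 2 matches in each of the Ezr, Clic5 and Pdpn windows, 3 in that of Ildr2 and 0 in that of Dpp4, while 35.7% of all 32851 promoter windows held at least 1. The sequence TATAAA was found once, in the Dpp4 window, and in 13.6% of all windows. The E-box CANNTG, which reads the same on both strands, occurred 2 times in the Pdpn window, 3 times in that of Ildr2, 1 time in that of Dpp4 and not in those of Ezr and Clic5, against 72.3% of all windows with a match. G and C made up 48.7% of the Pdpn window and 69.0% of the Ildr2 window. These matches describe the letters of the windows only.

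Total counts per library lay between 42198416 and 54687045, and the fewest counts of a member in any library were 5960, for Pdpn, so the number of libraries and not depth limited precision. The defining podocyte gene Nphs1 (nephrin) was abundant in all groups, with at least 495 CPM in every library. Markers of the proximal tubule were also present. Their summed level was 760 to 3027 CPM in AJcl and 297 to 1394 CPM in ByJcl libraries at baseline, and 1189 to 2925 CPM and 247 to 1293 CPM at Day 5, with the top Day 5 value in A-ADR1. The labels put all libraries in batch 1, but baseline and Day 5 counts came in separate tables, so a difference in how the tables were made cannot be told apart from the Day 5 effect.

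Podxl was by far the most abundant member. Its mean level at baseline was 1320 ± 202 CPM per kb of annotated exon (SD, n = 3) in AJcl and 1509 ± 113 in ByJcl mice, and it took more counts than any other gene symbol in both groups, a rank that also depends on transcript length. Clic5 followed with 149 ± 22.0 CPM per kb in AJcl and 164 ± 12.1 in ByJcl mice, then Dpp4 with 103 ± 19.2 and 113 ± 14.6. Ezr stood at 59.5 ± 3.97 and 60.3 ± 2.57, Ildr2 at 44.4 ± 8.38 and 51.6 ± 2.45, and Pdpn at 29.3 ± 3.67 and 34.7 ± 4.08 CPM per kb. The order was the same in both substrains at baseline, and no 2 neighbours in it overlapped between their libraries. Exon lengths came from all annotated isoforms of a gene together, so a gene with many isoforms, such as Clic5 with 10200 bases, is placed lower by this scale than its main transcript alone would place it.

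The order held at Day 5 in AJcl mice, where it rests on all 3 libraries, A-ADR1 included. There the ranges of Clic5 and Dpp4, of Ezr and Ildr2, and of Ildr2 and Pdpn overlapped, those with Ildr2 only through A-ADR1. Its Ildr2 level, 22.1 CPM per kb, was below the lowest Pdpn level of 27.0. Clic5 stood above Dpp4 and Ezr above Ildr2 in every AJcl Day 5 library. In ByJcl mice at Day 5, Pdpn (42.4 ± 3.43 CPM per kb) stood above Ildr2 (37.1 ± 1.61), with no overlap between the 3 libraries of each. By number of counts, Podxl ranked 2 among all symbols in AJcl and 4 in ByJcl mice at Day 5.

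**Figure D1:**
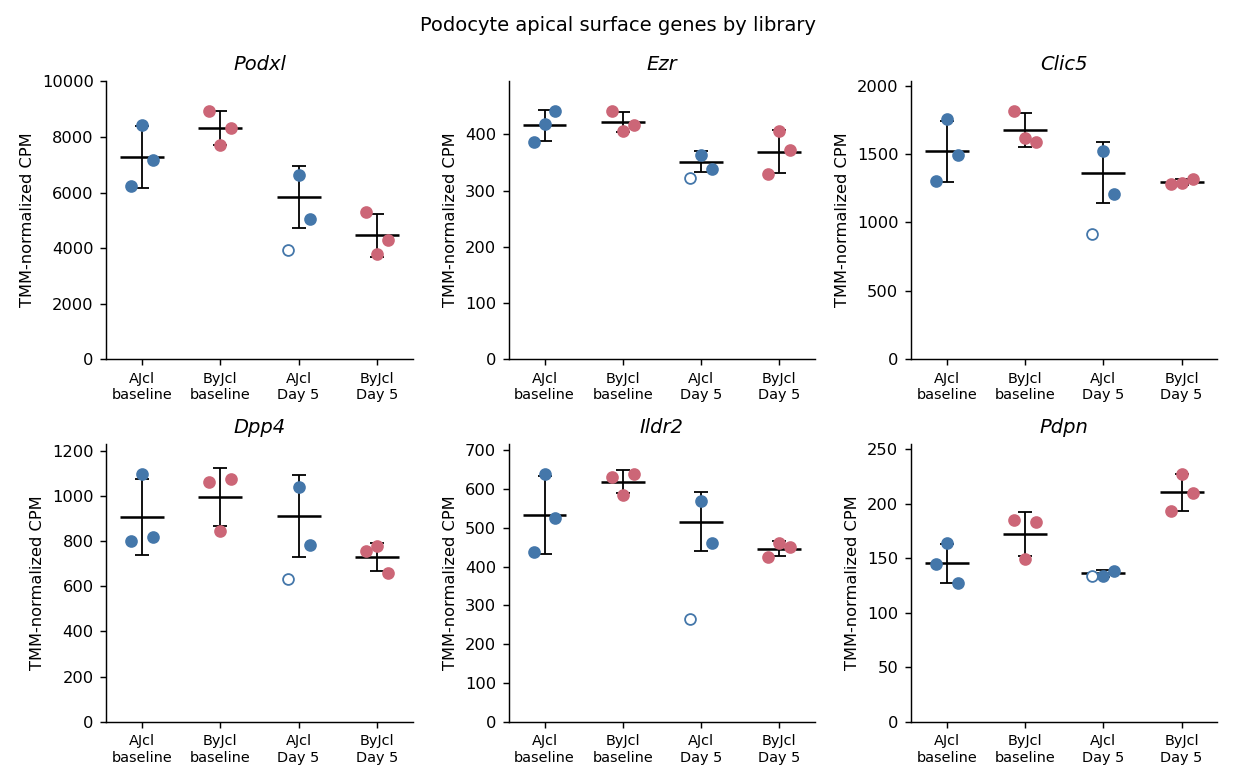
TMM-normalized CPM (vertical axes, from 0) of the 6 members in each library, with AJcl in blue and ByJcl in red. Bars and whiskers are means and SD, the open point is A-ADR1, which is not in the mean, and n is 3 per group except 2 in AJcl Day 5. Podxl runs from 3781 to 8943 CPM, and only Pdpn is higher in ByJcl mice at Day 5 than at baseline.

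The first comparison asked whether the surface genes differed between the substrains before treatment. Podxl was at 6218, 8436 and 7168 CPM in the AJcl and 8943, 7701 and 8309 CPM in the ByJcl baseline libraries. The ranges overlapped, although the lowest library was an AJcl and the highest a ByJcl one. Its log2 fold change (ByJcl relative to AJcl) was 0.22 ± 0.18 (SE), with an adjusted p of 0.699 (edgeR's quasi-likelihood test, Benjamini-Hochberg over all tested genes).

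All 6 members had a positive log2 fold change at baseline, from 0.05 for Ezr to 0.27 for Pdpn, with a median of 0.19 beside 0.01 over all tested genes. None was called at an adjusted p below 0.05 by edgeR's quasi-likelihood test, where 0.159% of all tested genes were called, none had an unadjusted p below 0.05, as 8.34% of all tested genes had, and DESeq2 called none of them and 0.594% of all tested genes. None of the 6 was free of overlap between the substrains, against 14.3% of all tested genes. The 15 podocyte reference genes also all had positive values, with a median of 0.27. This list holds slit diaphragm, cytoskeletal, transcription factor and other genes, among them Nphs1, Synpo, Wt1 and Cdkn1c. The tubule markers went the other way: all 7 proximal and all 5 distal markers had negative values, with medians of -0.97 and -1.34. Neither edgeR nor DESeq2 called a gene of any of these lists at baseline, 3 of their genes (Calb1, Slc12a1 and Kirrel) had an unadjusted p below 0.05, and the part of tubule content in the members' values was not tested.

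Within the AJcl baseline group, Podxl, Clic5, Dpp4 and Ildr2 were lowest in replicate 1 and highest in replicate 2. For Ildr2 the 3 libraries read 437, 638 and 525 CPM. The summed level of the podocyte reference genes had the same order, with 14120, 19647 and 15262 CPM. Ezr varied less, with a coefficient of variation of 6.68% against 15.3% for Podxl, and stood at 387, 419 and 442 CPM.

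ADR treatment of ByJcl mice gave the only call among the members by edgeR's quasi-likelihood test. Podxl fell from 8943, 7701 and 8309 CPM at baseline to 5283, 3781 and 4292 CPM at Day 5. Every Day 5 library was below every baseline library. The log2 fold change was -0.92 ± 0.18 (95% interval -1.31 to -0.52), which is 0.530 times the baseline level, with an adjusted p of 0.0101 by edgeR's quasi-likelihood test. Podxl was the only 1 of the 6 members called by edgeR in this comparison, in which 10.6% of all tested genes were called and 4.83% were called lower. Without ByJcl Day 5 replicate 2, the library with the lowest Podxl level, the log2 fold change was -0.81 and the adjusted p 0.0521. DESeq2 gave -0.90 with an adjusted p of 3.2e-06.

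Ildr2 was at 632, 586 and 640 CPM at baseline and at 424, 462 and 451 CPM at Day 5 in ByJcl mice. The groups did not overlap. The log2 fold change of -0.49 ± 0.14 had an adjusted p of 0.0530 by edgeR's quasi-likelihood test, just above the threshold, and of 0.0170 by DESeq2, which called 15.8% of all tested genes. Dpp4 read 1061, 847 and 1077 CPM at baseline and 757, 778 and 660 CPM at Day 5, again without overlap, with a log2 fold change of -0.46 ± 0.17 and an adjusted p of 0.107 in the same edgeR fit. Clic5 stood at 1815, 1619 and 1587 CPM and then at 1279, 1291 and 1317 CPM. Its highest Day 5 library was 1.03 times the lowest, all were below the baseline libraries, and the log2 fold change was -0.38 ± 0.14 (adjusted p 0.106, edgeR). Ezr differed least, with 441, 406 and 417 CPM at baseline and 329, 406 and 372 CPM at Day 5. Its groups were separated only narrowly, and the log2 fold change of -0.21 ± 0.11 had an adjusted p of 0.241 in edgeR.

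Pdpn was the 1 member with a positive value. It was at 185, 149 and 183 CPM at baseline and at 193, 227 and 210 CPM at Day 5. All Day 5 libraries were above all baseline libraries, by a log2 fold change of 0.27 ± 0.13 (adjusted p 0.201, edgeR). Thus all 6 members were free of overlap between ByJcl baseline and Day 5, 5 of them lower and 1 higher, where 33.1% of all tested genes were free of overlap, 15.1% lower and 18.0% higher. The members' median log2 fold change was -0.42, beside 0.01 over all tested genes.

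**Figure D2:**
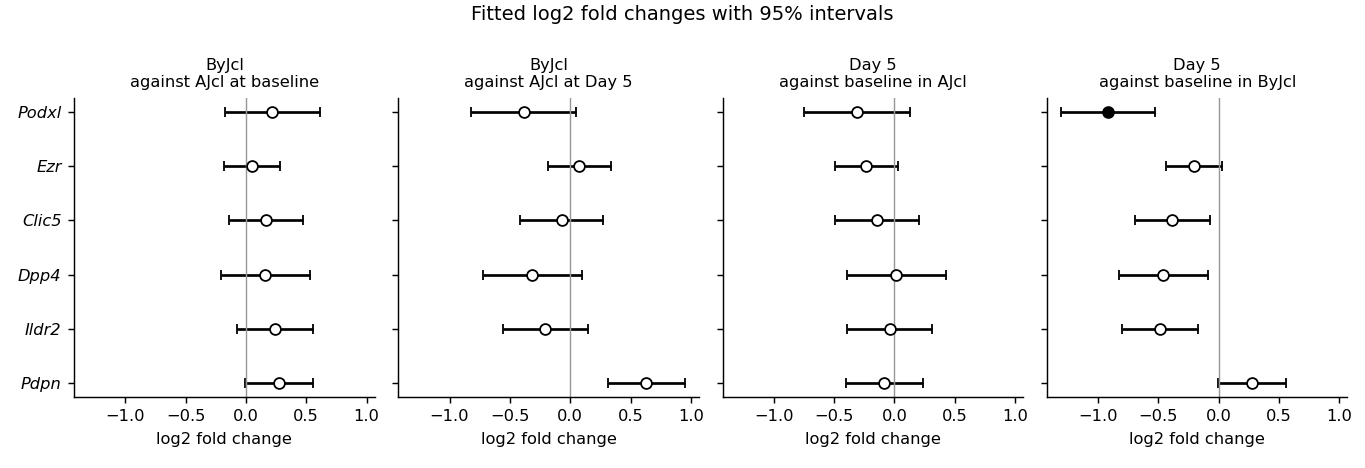
Log2 fold changes of the 6 members in the 4 comparisons (horizontal axis), with 95% intervals from edgeR's quasi-likelihood fit of 11 libraries. The filled point is an adjusted p below 0.05 and open points are above it: only Podxl from baseline to Day 5 in ByJcl mice (-0.92) is filled, and Pdpn at Day 5 (0.63) is the largest positive value.

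Of the 15 podocyte reference genes 12 fell and 1 rose in ByJcl mice, at adjusted p-values below 0.05 in the same edgeR fit. Their median was -1.28 beside -0.42 for the members, a difference that was not tested. The largest negative value was that of Thsd7a, -2.67 (adjusted p 0.00163), Nphs1 fell by 1.28 on the log2 scale (adjusted p 0.00853), and Cdkn1c, a cyclin-dependent kinase inhibitor, rose by 1.01 (adjusted p 0.00670). Others that fell included Lmx1b, Magi2, Plce1, Ptpro, Sema3g, Synpo, Tcf21 and Wt1, and Kirrel and Rhpn1 were not called. Without ByJcl Day 5 replicate 2 the calls of Lmx1b and Tcf21 were lost (highest adjusted p over all fits 0.0647 and 0.0584), that of Lmx1b also with all 12 libraries. In bulk samples fewer podocytes and less RNA per podocyte cannot be told apart.

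Relative to the summed level of the reference genes in the same library, each member was higher at Day 5 than at baseline in ByJcl mice. The Podxl level equalled 42.5%, 42.8% and 44.7% of the reference sum, which does not include it, at baseline and 48.2%, 48.3% and 55.0% at Day 5, a difference of 0.22 on the log2 scale or 1.16-fold. The difference was 0.66 for Ildr2, 0.69 for Dpp4, 0.76 for Clic5 and 0.93 for Ezr. It was largest for Pdpn, at 1.42 or 2.68-fold, from 0.878%, 0.828% and 0.986% to 1.77%, 2.90% and 2.68%. For all 6 the libraries of the 2 groups did not overlap, and the two-sided exact permutation test gave p = 0.1, the smallest that 3 against 3 libraries allow. The same ratio was higher without overlap for 78.1% of all tested genes, and the reference sum itself went from 17981 to 21023 CPM at baseline to 7809 to 10957 CPM at Day 5. The 6 ratios share 1 denominator, which is weighted toward abundant genes, and are not independent of one another. Cdkn1c, the reference gene that rose, was 6.12% to 8.46% of the reference sum at baseline and 27.96% to 34.7% at Day 5. With Cdkn1c left out of the sum, an alternative chosen after seeing the data, the Podxl level equalled 45.3% to 48.8% of it at baseline and 67.6% to 76.3% at Day 5, a log2 difference of 0.64 in place of 0.22, and those of the other members were 1.08 (Ildr2) to 1.84 (Pdpn).

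**Figure D3:**
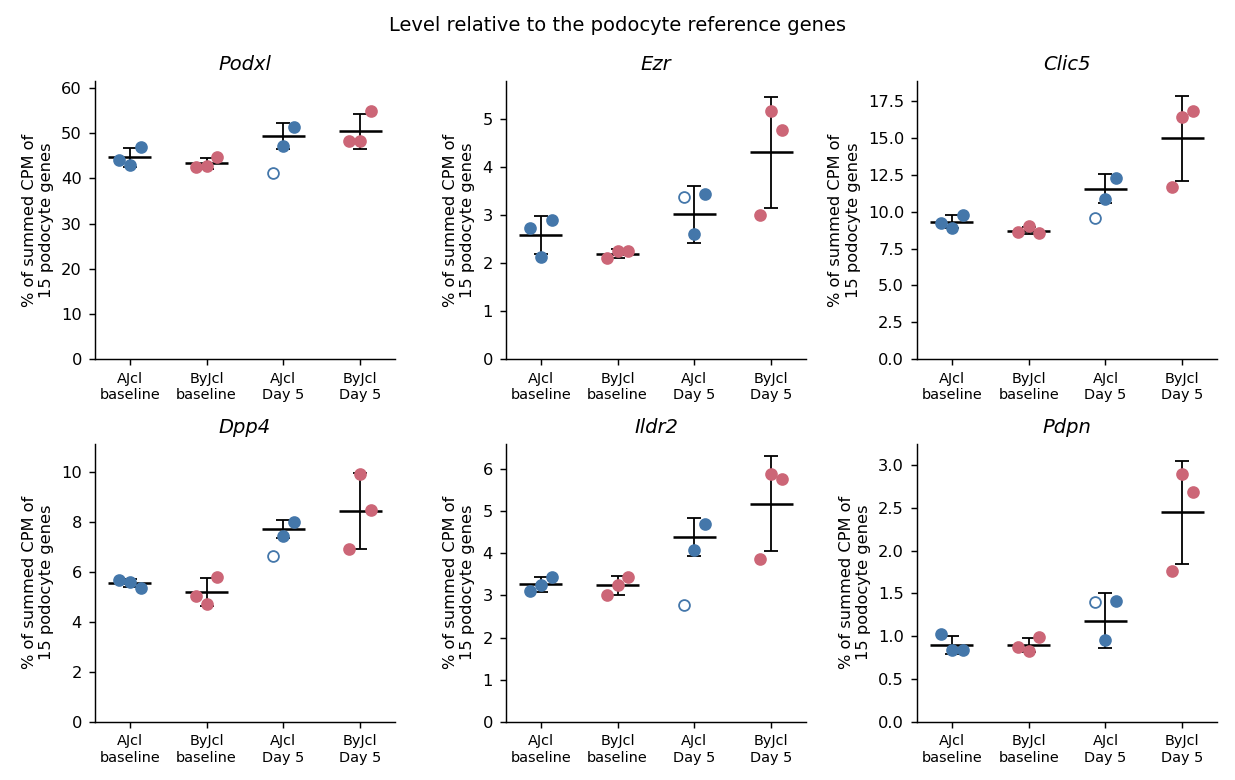
Level of each member as a percentage of the summed CPM of the 15 podocyte reference genes in the same library (vertical axes, from 0), with AJcl in blue and ByJcl in red. Means and SD are drawn over 3 libraries per group, or 2 for AJcl Day 5, whose open point is A-ADR1. Pdpn goes from at most 0.986% at ByJcl baseline to at least 1.77% at Day 5, and Podxl stays between 41.2% and 55.0% in all libraries with Cdkn1c in the sum, and between 45.3% and 76.3% without it.

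In AJcl mice the same treatment gave no call among the members. Podxl was at 6218, 8436 and 7168 CPM at baseline and at 6617 and 5046 CPM in the 2 Day 5 libraries used, with 3937 CPM in A-ADR1. The groups overlapped, and the log2 fold change of -0.31 had an adjusted p of 0.690 by edgeR's quasi-likelihood test. Over 7 ways of fitting, this log2 fold change ran from -0.48 to -0.29, and from -0.52 to -0.15 when 1 library at a time was left out. None of the 6 members was called, where 0.312% of all tested genes were, none had an unadjusted p below 0.05, as 9.80% of all tested genes had, and DESeq2 called none of them and 1.77% of all tested genes. Ezr alone was free of overlap, at 364 and 338 CPM against 387 to 442 CPM at baseline, with a log2 fold change of -0.23 (adjusted p 0.574, edgeR), while 25.9% of all tested genes were free of overlap. A-ADR1 had 322 CPM of Ezr, also below all baseline libraries, and with it 13.4% of all tested genes were free of overlap.

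The other members had values of smaller size in AJcl mice: -0.15 ± 0.16 (SE) for Clic5, -0.08 for Pdpn, -0.04 for Ildr2 and 0.02 ± 0.19 for Dpp4. With A-ADR1 in the fit the value of Dpp4 was -0.15, the opposite sign, and that of Ildr2 was -0.30. In that fit Clic5 had -0.32 in AJcl beside -0.37 in ByJcl mice. Leaving out 1 library at a time gave -0.33 to -0.01 for Clic5 in AJcl mice. The members' median was -0.12, beside -0.01 over all tested genes, and the podocyte reference genes had a median of -0.46 with 13 of 15 negative and none called by edgeR. At an unadjusted p below 0.05 there were 8 of the 15, against that 9.80% of all tested genes, and DESeq2 called 4, among them Magi2 and Sema3g lower and Cdkn1c higher. Relative to the reference sum, Clic5, Dpp4 and Ildr2 were higher in both Day 5 libraries used than in the 3 baseline libraries, by 0.31, 0.48 and 0.43 on the log2 scale (two-sided exact permutation p = 0.1 for each, the smallest possible). Podxl was also free of overlap, at 0.14 (exact permutation p = 0.2), and Ezr and Pdpn overlapped, at 0.22 and 0.38 (p = 0.6 and p = 0.3 by the same exact test). Over all tested genes 36.2% had a higher ratio without overlap. In A-ADR1 the ratios of Ildr2 (2.78%) and Podxl (41.2%) were below all AJcl baseline libraries, that of Clic5 (9.59%) was within them and that of Dpp4 (6.62%) was above them. With Cdkn1c left out of the sum, the differences of Clic5, Dpp4, Ildr2 and Podxl were 0.51, 0.67, 0.62 and 0.34 (exact permutation p = 0.1 for each), the ratio of Podxl in A-ADR1 (54.1%) was above the AJcl baseline libraries (45.5% to 50.3%) and not below them, and that of Ildr2 (3.64%) was within them.

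The substrains were also compared with each other at Day 5. Pdpn was at 134 and 138 CPM in the 2 AJcl libraries used and at 193, 227 and 210 CPM in the ByJcl libraries, and A-ADR1 was at 134 CPM. All ByJcl libraries were above all AJcl libraries, with or without A-ADR1, and the AJcl values lay within a few CPM of one another. The log2 fold change was 0.63 ± 0.15 (95% interval 0.31 to 0.95), with an unadjusted p of 0.00121 and an adjusted p of 0.118 by edgeR's quasi-likelihood test. DESeq2 gave 0.64 with an adjusted p of 0.00473, so the call depended on the tool. Over 8 ways of fitting the same comparison the adjusted p ran from 0.00473 to 0.380 and the log2 fold change from 0.62 to 0.64. Leaving out 1 library at a time gave log2 fold changes of 0.57 to 0.68.

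None of the other 5 members was called between the substrains at Day 5 by either tool. Podxl had a log2 fold change of -0.39 ± 0.20 (adjusted p 0.410, edgeR), with 6617 and 5046 CPM in AJcl and 5283, 3781 and 4292 CPM in ByJcl libraries, which overlapped. Dpp4 read 1041 and 783 CPM in AJcl and 757, 778 and 660 CPM in ByJcl libraries, without overlap, and its log2 fold change of -0.31 ± 0.19 had an adjusted p of 0.477 by edgeR's quasi-likelihood test. A-ADR1, at 632 CPM, was below all 3 ByJcl libraries, so Dpp4 overlapped when it was included. Ildr2, Clic5 and Ezr had values of -0.21, -0.07 and 0.08. Over 8 ways of fitting, Podxl ran from -0.41 to -0.22 and Dpp4 from -0.33 to -0.16. Leaving out 1 library at a time gave -0.55 to -0.19 for Podxl and -0.49 to -0.10 for Dpp4.

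Thus 0 of the 6 members were called by edgeR's quasi-likelihood test at Day 5, where 0.165% of all tested genes were called. At an unadjusted p below 0.05 there was 1, Pdpn, beside 2374 of the 17002 tested genes, and DESeq2 called the same 1, where it called 3.15% of all tested genes. The 2 members free of overlap, Pdpn and Dpp4, compare with 33.0% of all tested genes, or 19.3% with A-ADR1. The members' median was -0.14, beside 0.00 over all tested genes, and that of the podocyte reference genes was -0.65, with none called by edgeR, 9 at an unadjusted p below 0.05, and Magi2, Sema3g and Thsd7a called lower by DESeq2. Relative to the reference sum Pdpn was 2.07-fold higher in ByJcl than in AJcl mice at Day 5, without overlap (two-sided exact permutation p = 0.2, where 0.1 is the smallest possible), and 27.2% of all tested genes had a ratio that was higher without overlap.

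Whether the effect of ADR differed between the substrains was tested as an interaction. Podxl had the largest negative value among the members, -0.61, with an unadjusted p of 0.0425 and an adjusted p of 0.621 by edgeR's quasi-likelihood test. Dpp4 had -0.48, Ildr2 -0.45, Clic5 -0.24, Ezr 0.03 and Pdpn 0.36 (adjusted p 0.657, edgeR). Over 7 ways of fitting, Podxl ran from -0.63 to -0.42, Dpp4 from -0.48 to -0.30, Ildr2 from -0.45 to -0.17 and Clic5 from -0.24 to -0.05. Pdpn ran from 0.35 to 0.39 and Ezr from 0.03 to 0.09. For Dpp4 and Clic5 the value smallest in size came from the fit with A-ADR1. None of the members was called, and neither was any other gene (0.0% of all tested genes), with 1363 genes at an unadjusted p below 0.05 and 22 (0.129%) called by DESeq2, none of them a member. The fall of Podxl in ByJcl mice was therefore not shown to differ from its value in AJcl mice. The podocyte reference genes had a median interaction of -0.87, beside -0.34 for the members, with 14 of 15 negative and none called by edgeR. DESeq2 called 1 of these reference genes, Thsd7a (-1.81, adjusted p 0.0338).

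The genes around the members were taken from 7 lists of 41 genes, all tested. In ByJcl mice 7 of them rose and 2 fell from baseline to Day 5 by edgeR's quasi-likelihood test, which called 10.6% of all tested genes, and in each of the other comparisons edgeR called none. Their median log2 fold change in ByJcl mice was 0.02. The calls of Clic1, Cd44, St6gal1 and Enpep held in all 17 alternative fits. Those of Msn (highest adjusted p 0.0724), Cd34 (0.0755), Gne (0.0533) and Clec1b (0.121) were lost only without 1 of the ByJcl libraries, and that of Clic4 (0.169) was lost in 12 of the 17. DESeq2 called 11 in ByJcl mice (9 higher and 2 lower), where it called 15.8% of all tested genes, none at baseline or in AJcl mice, and 5 at Day 5 between the substrains, all higher in ByJcl mice, where it called 3.15% of all tested genes.

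The 11 genes that link podocalyxin to actin had a median of 0.04 in ByJcl mice, and 1 of them was called by edgeR. DESeq2 called 3, the others being Arhgdia (0.25, adjusted p 0.0446) and Rhoa (0.27, adjusted p 0.0452). Msn, which encodes the ezrin relative moesin, rose from 567 ± 40.0 to 806 ± 19.0 CPM, a log2 fold change of 0.49 with an adjusted p of 0.0188 in edgeR. Ezrin's other relatives Rdx (radixin, -0.14) and Nf2 (merlin, -0.19) were not called, and neither were the adaptors NHERF1 (Slc9a3r1, -0.32, the largest negative value) and NHERF2 (Slc9a3r2, -0.17). Of the 2 related sialomucins, Cd34 rose by 0.72 (adjusted p 0.0201, edgeR), from 268 ± 29.5 to 447 ± 64.9 CPM, whereas Podxl2 (endoglycan) had a value of 0.04.

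Of the 10 genes of sialic acid synthesis, transfer and removal, 1 rose and 1 fell, with a median of -0.12. Gne, the first enzyme of sialic acid synthesis, rose by 0.57 (adjusted p 0.0121, edgeR). St6gal1, which adds sialic acid to N-linked glycans, fell by 1.05 on the log2 scale (adjusted p 0.00807, edgeR), from 254 ± 44.5 to 124 ± 14.99 CPM. The enzymes that sialylate mucin-type glycans, St3gal1 and St3gal2, had values of -0.37 and -0.22 and were not called.

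Among the 4 other genes of the CLIC family, with a median of 0.04, 2 rose while Clic5 itself did not pass the test. Clic1 rose by 0.84 (adjusted p 0.00614), from 193 ± 7.61 to 350 ± 49.8 CPM, and Clic4 by 0.44 (adjusted p 0.0482) in edgeR's quasi-likelihood fit. Clic3 had -0.74, the largest negative value. The partners of podoplanin, 4 genes with a median of 0.64, included 2 that rose: Cd44, the hyaluronan receptor, by 1.02 (adjusted p 0.00679), and Clec1b, which encodes CLEC-2, by 1.30 (adjusted p 0.0290). Clec1b stayed at or below 4.23 CPM in every library. Lgals8 had the lowest value of the 4, 0.21.

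Of the 7 peptidases other than Dpp4, with a median of -0.25, Enpep (aminopeptidase A, abundant on podocytes) fell by 1.28 on the log2 scale (adjusted p 0.00506, edgeR), from 1697 ± 235 to 707 ± 139 CPM. Fap, the closest relative of Dpp4, had the largest positive value, 0.66, and was not called. Its level was low, at 0.64 ± 0.40 CPM at baseline and 1.02 ± 0.67 CPM at Day 5. None of the 3 genes of tricellular contacts was called by edgeR, at an unadjusted p below 0.05, or by DESeq2. Their median was 0.17, with Lsr at 0.23 and Marveld2 at -0.19.

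At Day 5 between the substrains, the 5 genes that DESeq2 called were Clic1 (0.80, adjusted p 0.00117), Cd44 (0.91, 0.00337), Msn (0.51, 0.00501), Arhgdia (0.39, 0.0105) and Cd9 (0.46, 0.0405). The edgeR adjusted p was 0.118 for Cd44 and 0.142 for Msn. Of the other lists in that comparison, the sialomucins ran in edgeR from 0.10 to 0.49 (Cd34) and the peptidases from -0.64 (Enpep) to 0.004. The sialic acid genes ran from -0.51 (St6gal1) to 0.40 (Nans), and the genes of tricellular contacts from -1.26 (Ildr1) to 0.31 (Lsr). Ildr1 had low levels, 1.75 ± 1.37 CPM in ByJcl and 4.23 ± 0.64 CPM in the 2 AJcl libraries used. Markers of other cells also differed in sign by list: all 7 immune markers had positive values (median 1.08), and all 7 proximal and all 5 distal tubule markers negative ones (medians -0.90 and -1.35). None of these 19 markers was called by edgeR, while DESeq2 called Cd68 of macrophages (1.19, adjusted p 0.00405) and the distal gene Calb1 (-3.31, 0.0363), and also the mesangial Serpine2 (0.75, 5.1e-05). The summed immune markers were 13.9 to 47.0 CPM in AJcl and 57.8 to 111 CPM in ByJcl libraries at Day 5, and at baseline 23.9 to 41.3 CPM and 50.01 to 87.5 CPM. The part of these cells in the Day 5 values of Pdpn, Dpp4 and the related genes was not tested.

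**Figure D4:**
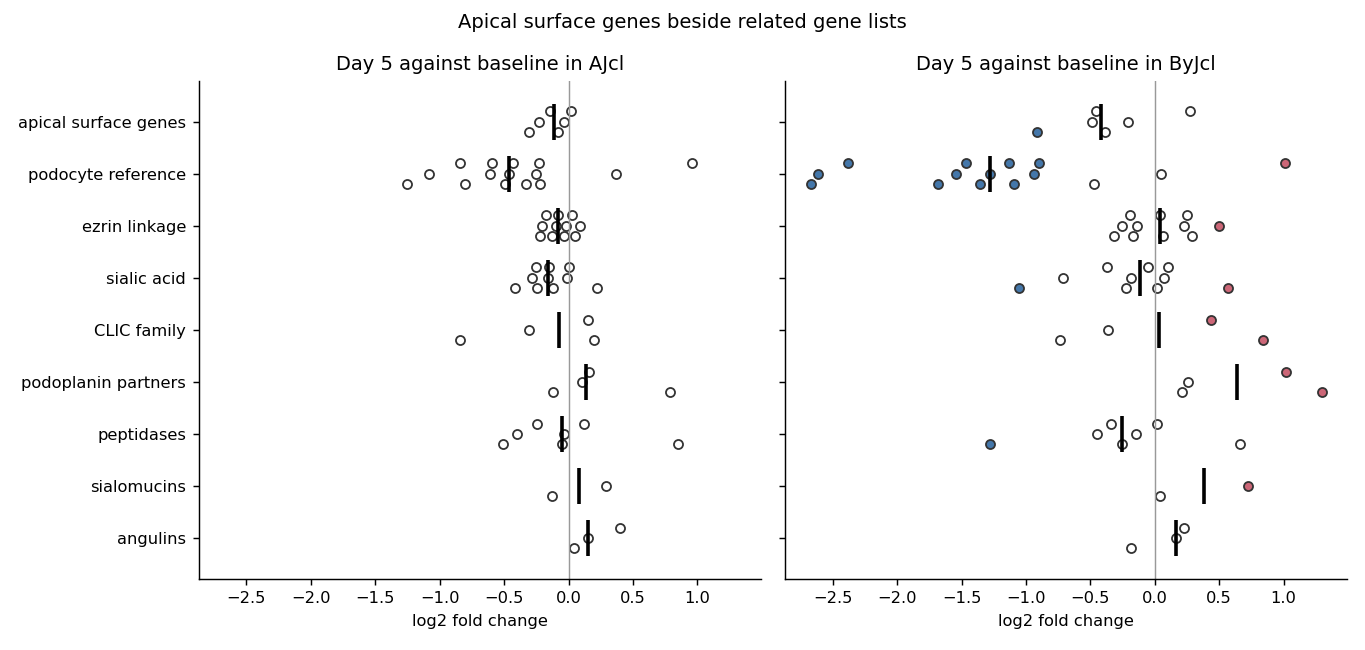
Log2 fold changes from baseline to Day 5 in AJcl (left) and ByJcl mice (right) of the 6 apical surface genes, the 15 podocyte reference genes and the 7 related lists, 1 point per gene. Red points rose and blue points fell at an adjusted p below 0.05 (edgeR), open points were not called, and vertical bars are list medians. In ByJcl mice the members' median is -0.42 and that of the reference genes -1.28.

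Some members are also made by other cells of these samples, so the marker lists of those cells are given beside them, and their part in the members' values was not tested. The endothelium also makes podocalyxin. From baseline to Day 5 in ByJcl mice its 8 markers had a median of -0.22. Ehd3 (-0.81, adjusted p 0.0271, edgeR) and Flt1 (-0.54, adjusted p 0.0471) fell, and Egfl7 had the largest positive value, 0.54. DESeq2 called 4, these 2 with Kdr lower (adjusted p 0.0237) and Egfl7 higher (adjusted p 0.0218). The call of Flt1 was lost in 12 and that of Ehd3 in 5 of 17 alternative fits. Their summed level went from 7731 to 9196 CPM at baseline down to 5149 to 7525 CPM, and it was lowest in ByJcl Day 5 replicate 2, as Podxl was.

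Podoplanin marks lymphatic endothelium, and 3 of its 4 markers were near 0: Lyve1 had at most 4.59 CPM, Prox1 at most 2.18 CPM and Mmrn1 at most 0.299 CPM in any library. The other marker, Flt4, which blood endothelium can also make, had 55.1 to 128 CPM, with the lowest value in A-ADR1. Of the 4 lymphatic markers none was called by edgeR in ByJcl mice, with a median of -0.02, a value of -1.07 for Lyve1 (unadjusted p 0.0133, called by DESeq2) and, for Mmrn1, 0 counts in all ByJcl baseline libraries. Podoplanin is also found on parietal cells of Bowman's capsule. Of the 5 parietal markers, with a median of -0.26, Cldn1 rose by 0.77 (adjusted p 0.0213) and Krt7 fell by 0.63 on the log2 scale (adjusted p 0.0246, edgeR), calls lost in 2 and 6 of 17 alternative fits, and the sum of the 5 was 143 to 158 CPM at baseline and 120 to 182 CPM at Day 5 in ByJcl mice.

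Dpp4 is made by the proximal tubule too. In AJcl baseline replicates 1, 2 and 3 the summed tubule markers were 1365, 760 and 3027 CPM beside 801, 1100 and 817 CPM of Dpp4. In A-ADR1 they were 2925 CPM beside 632 CPM of Dpp4, and their part in the Dpp4 values was not tested. In ByJcl mice from baseline to Day 5 the 7 proximal tubule markers had a median of -0.39, between -0.63 for Lrp2 and 0.47 for Slc5a12, and the 5 distal markers one of -0.24, between -1.58 for Aqp2 and 0.43 for Slc12a1. None of these 12 was called by edgeR or DESeq2.

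The mesangial markers, 4 tested of 5, had a median of 0.02, with Serpine2 rising by 0.87 (adjusted p 0.00285, edgeR) and Pdgfrb at -0.08. The 7 immune markers had a median of 0.35. Cd68 of macrophages rose by 1.17 (adjusted p 0.0128, edgeR, lost without ByJcl baseline or Day 5 replicate 2). C1qa had -0.62, with a low level of 1.10 ± 0.71 CPM at baseline and 0.71 ± 0.66 CPM at Day 5.

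The tested genes whose pattern over the 12 libraries was most like that of each member were found by the root mean square difference of log2(CPM + 1) after centring each gene on its mean. This likeness is a description over libraries that share groups and depth. For Podxl they were Hspa12a (0.0750), Parva (0.0811) and Septin11 (0.0820), while the values of Podxl itself spread with an SD of 0.42.

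Kif5b (0.0594), Caprin1 (0.0635) and Rnf146 (0.0767) were nearest to Ezr, the member with the smallest spread (SD 0.15). Plxdc2 (0.0735), Ddx17 (0.0737) and Foxj3 (0.0827) were nearest to Clic5, and Dock4 (0.0844), Plekhg1 (0.0903) and Phka2 (0.0925) to Ildr2. Fnbp1l (0.102), Ogt (0.104) and Hs3st3a1 (0.110), a heparan sulfate sulfotransferase, were nearest to Dpp4. For Pdpn the 3 were Efhd2 (0.105), Fstl1 (0.121) and Tinagl1 (0.127). Among the members themselves, Clic5 and Ildr2 were the most alike (0.115) and Podxl and Pdpn the least (0.551).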

How the data were processed

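RNA-seq of isolated glomeruli gave 12 libraries, 3 for each substrain and time. Per the labels, the authors used Trimmomatic for trimming, STAR for alignment (GRCm39) and featureCounts for counting. The deposited values are whole-number counts per gene symbol, neither normalized nor pooled, in 1 table for baseline and 1 for Day 5. The annotation and the strand and pair settings of the counting were not given in the sources used here. Between 77.1% and 82.9% of counts from 1 to 49 were even in each library. The labels do not say whether a library is 1 animal, so p-values measure the spread between these libraries.

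Counts as deposited were fitted in R 4.3.3 with edgeR 4.0.16 (filterByExpr by the 4 groups, TMM, quasi-likelihood test, Benjamini-Hochberg, threshold 0.05). The fit covered 17002 genes in 11 libraries, with a coefficient for each group. It was tested on simulated data. Levels are TMM-normalized CPM of all 12 libraries, and CPM per kb divides by the length of all annotated exons. Ratios to the podocyte reference sum were compared by two-sided exact permutation tests. DESeq2 1.42.0, RLE size factors, 2 other filters, all 12 libraries, fits of only the 2 groups compared, a replicate block, leaving out each library and, added after seeing the data, a reference sum without Cdkn1c were alternatives. Figures used Python 3.11.15 and matplotlib 3.10.9.

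The members and all gene lists were chosen with earlier results of these data known. Named are all members, and of each list every called gene and those with the largest positive and negative log2 fold change in the comparison described, and the 3 tested genes most like each member. Genes named beyond that rule were chosen after their values were seen. Some genes of the lists are not reported here by name.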

Additional observations from a re-analysis of the deposited data

Results flagged for a closer look

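Pdpn lay on opposite sides of the baseline mean in the 2 substrains. Every AJcl Day 5 library, A-ADR1 included, was below the AJcl baseline mean of 145 CPM. These libraries, at 134 to 138 CPM, still lay within the AJcl baseline range of 127 to 164 CPM. Every ByJcl Day 5 library was above the ByJcl baseline mean of 172 CPM. The interaction log2 fold change was 0.36 with an adjusted p of 0.657 by edgeR's quasi-likelihood test, so the difference between the substrains did not pass the test.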

How the results depend on the processing

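The fall of Podxl in ByJcl mice kept its direction in all fits and its call in all but the one without ByJcl Day 5 replicate 2. Genes called by edgeR at baseline, at Day 5, in AJcl, in ByJcl and in the interaction numbered 27, 28, 53, 1800 and 0. DESeq2 called 101, 535, 301, 2694 and 22. Fits of only the 2 groups compared called 15 at baseline and 6 at Day 5. With no filter on low counts 56 were called at Day 5 and 99 in AJcl, and with all 12 libraries 72 at Day 5 and 1197 in ByJcl mice. Members called were 1 at Day 5 by DESeq2, and 2 in ByJcl mice by DESeq2 and with no filter, where Ildr2 (-0.47 and -0.49, adjusted p 0.0170 and 0.0427) joined Podxl. With all 12 libraries Clic5 (0.092) and Ildr2 (0.044) turned positive at Day 5 and Dpp4 turned negative in AJcl (-0.15). The cause was not tested.

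Leaving out 1 library at a time gave 12 to 29 calls at baseline, 9 to 218 at Day 5, 11 to 180 in AJcl, 680 to 2056 in ByJcl mice and 0 to 5 in the interaction, and 0 to 2 members called in ByJcl mice, Ildr2 joining without AJcl baseline replicate 1 or 2 (adjusted p 0.0273 and 0.0248). Signs turned within these ranges: at baseline Ezr -0.030 to 0.076, at Day 5 Clic5 -0.21 to 0.10, in AJcl Dpp4 -0.20 to 0.20, Pdpn -0.17 to 0.029 and Ildr2 -0.20 to 0.13, and in the interaction Ezr -0.045 to 0.13. For the ratios to the reference sum they were Podxl -0.031 to 0.092 and Dpp4 -0.011 to 0.25 at Day 5, and Pdpn -0.065 to 0.10 and Ildr2 -0.057 to 0.040 at baseline. Leaving Cdkn1c out of the reference sum, chosen after seeing the data, kept all signs and moved the ratio of Podxl at Day 5 from 0.032 to 0.26.

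The replicate numbers are shared by different mice, and deviations of same-numbered libraries correlated between -0.22 and 0.34, so the numbers were not taken as pairs. With the replicate block 19, 19, 26, 1592 and 0 genes were called, and Podxl in ByJcl mice had -0.92 (adjusted p 0.0193, edgeR).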
